A study of Mus musculus with 12 samples.

Results

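The genes described here encode proteins that bend, scaffold or cut membrane at the neck of caveolae and along the transverse tubules of skeletal muscle. They are 9 genes, Ehd1, Ehd2, Ehd3, Ehd4, Pacsin2, Pacsin3, Bin1, Mtm1 and Dnm2, taken by exact match of the gene symbol from the 21936 genes listed in the files. Polyadenylated RNA was measured in muscle of C57BL/6N mice at 3 months of age that were either wild type or PTRF knockout, the latter recorded as having muscular dystrophy. PTRF, now called cavin 1, is the coat protein without which caveolae do not form, and its gene is Cavin1. The labels name soleus and quadriceps with 3 samples of each genotype, 12 in all, but the quadriceps and soleus files of the same genotype and number held the same values, with no gene differing by more than 0 TPM. The soleus file of WT library 3 also lists genes at 0, 21936 in all, where its quadriceps file lists 16121. The 6 distinct libraries, 3 wild type (WT) and 3 knockout (KO), were therefore counted once. The labels and the copied values do not settle which of the named muscles they came from. The labels give neither the knockout allele nor the sex of the mice, and no label says whether each sample is a different mouse. The p-values therefore describe variation among these libraries, part of which may be technical.

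Caveolae are flask-shaped pits of the plasma membrane, and transverse tubules are the invaginations that carry the action potential into the muscle fibre. EHD proteins are ATPases related to dynamins that form rings on curved membrane, and EHD2 sits at the caveolar neck and holds caveolae at the surface. Pacsins, also called syndapins, are F-BAR proteins whose curved surface bends membrane, and pacsin 3 is their main form in muscle. Amphiphysin 2, the product of Bin1, is an N-BAR protein that shapes transverse tubules, dynamin 2 (Dnm2) is the GTPase that pinches membrane necks, and myotubularin (Mtm1) is a phosphatase of membrane phosphoinositides. Mutations of BIN1, DNM2 and MTM1 cause centronuclear myopathies in humans.

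Levels were taken as TPM, a length-corrected share of all transcripts, so different genes can be compared within a library. The files give no read counts, and their depth is unknown. Cavin1 stood at 45.2, 39.96 and 42.2 TPM in the WT libraries and at 0.284, 0.0905 and 0.0254 TPM in the KO libraries, which fits the labels. Muscle fibre markers were abundant in both groups, with a summed level of 33196 to 37169 TPM in WT and 36701 to 43078 TPM in KO over 8 genes. That sum does not show the fibre types. The myosin heavy chains Myh7 and Myh2 stood at 1702 to 2703 and 1209 to 1610 TPM in WT. In KO they stood at 2196 to 3291 and 1203 to 1838 TPM, and Myh1 overlapped as well. Myh4 did not overlap, at 6.43, 194 and 4.21 TPM in WT and 238, 580 and 346 TPM in KO. Of 11056 genes tested with limma on log2(TPM + 1), 4016 were called higher and 323 lower in KO at an adjusted p under 0.05. The count of genes called higher was 2535 without WT library 2, 2379 without KO library 1 and 2504 without KO library 3. Trimmed-mean rescaling, which brings the bulk of genes to a common level, moved the median over all genes from 0.33 to -0.01 on the log2 scale, and 1561 genes were then higher and 1479 lower. Changes of the 9 genes are therefore given on both scales, and those of other genes on the deposited scale unless rescaling is named.

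Promoter windows from RefSeq (build GRCm38.p6) were used for 7 members, and 3 are shown to set a pair of genes whose levels rose together beside a gene whose change did not pass. Each runs from 250 to 51 bases before the most upstream start in RefSeq, which can differ from the GENCODE gene ends given below, 5′ to 3′ on the gene's strand. Ehd2 lies at chr7:15967586-15967785 (minus strand), Ehd4 at chr2:120154626-120154825 (minus strand) and Pacsin2 at chr15:83464657-83464856 (minus strand). Capitals mark the CCAAT box (CCAAT, or ATTGG on the other strand), the GC box (GGGCGG, or CCGCCC on the other strand) and the E-box (CANNTG), searched on both strands.
Ehd2: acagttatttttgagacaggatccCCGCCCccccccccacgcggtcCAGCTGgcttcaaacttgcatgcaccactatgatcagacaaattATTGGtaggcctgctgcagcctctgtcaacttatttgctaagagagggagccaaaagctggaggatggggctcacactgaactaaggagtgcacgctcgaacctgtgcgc
Ehd4: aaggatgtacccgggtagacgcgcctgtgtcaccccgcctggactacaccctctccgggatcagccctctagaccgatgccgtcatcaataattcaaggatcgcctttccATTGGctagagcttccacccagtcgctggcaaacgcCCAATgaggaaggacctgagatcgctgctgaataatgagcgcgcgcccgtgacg
Pacsin2: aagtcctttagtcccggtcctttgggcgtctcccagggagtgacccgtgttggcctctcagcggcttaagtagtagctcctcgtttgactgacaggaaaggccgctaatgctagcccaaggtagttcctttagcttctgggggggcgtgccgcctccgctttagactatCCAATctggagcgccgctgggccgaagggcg
A CCAAT box was present in all 3 windows, once in Ehd2, 2 times in Ehd4 and once in Pacsin2, and 28.4% of the 32851 RefSeq windows of this length held one. Ehd2 alone of these 3 held a GC box and an E-box, once each, which 24.6% and 59.0% of all windows held. A TATA box (TATAAA), an AP-1 site (TGANTCA), a MEF2 site and a CArG box were searched as well and were in none of these 3 windows. The GC content was 54.0% in the Ehd2 window, 58.5% in the Ehd4 window and 59.5% in the Pacsin2 window, where the median of all windows was 51.5%. The window of Ehd4 held 16 CpG dinucleotides, that of Pacsin2 held 13 and that of Ehd2 held 6, and the median window held 4. The motifs are matches of letters only, and the gene whose change did not pass shared the CCAAT box with the genes that rose. Of the windows not shown, that of Pacsin3 held a CCAAT box once and that of Dnm2 2 times, and those of Ehd3 and Mtm1 held none. No window was used for Ehd1 or Bin1.

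On the deposited scale 3 of the 4 EHD genes stood at 2.43 to 2.46 times their wild-type level in the knockout libraries, and 5 of the 9 genes were called higher in all. These 5 were Ehd1, Ehd2, Ehd4, Bin1 and Dnm2. On this scale none of the 9 was called lower by limma, and none was lower at an unadjusted p under 0.05. Of all genes tested, 36.3% were called higher and 2.92% lower. The values of 6 genes did not overlap between the groups, all with KO above WT, beside 48.7% of all genes in that direction and 4.83% in the other. After trimmed-mean rescaling 3 of the 9 were called higher, Ehd1, Ehd2 and Ehd4, where 14.2% of all genes were and 13.5% were lower, and 4 were higher and 1 lower with no overlap, beside 21.4% and 22.3% of all genes. Quantile normalization and a scale of nuclear genes alone each left 4 higher, where 12.4% and 23.4% of all genes were higher and 13.1% and 6.39% lower. The members' median change (log2) was 0.53 as deposited and 0.16 rescaled, against 0.33 and -0.01 for all genes. Every member was above 1 TPM in each of the 6 libraries, so none was tested only because it was high in one group.

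**Figure D1:**
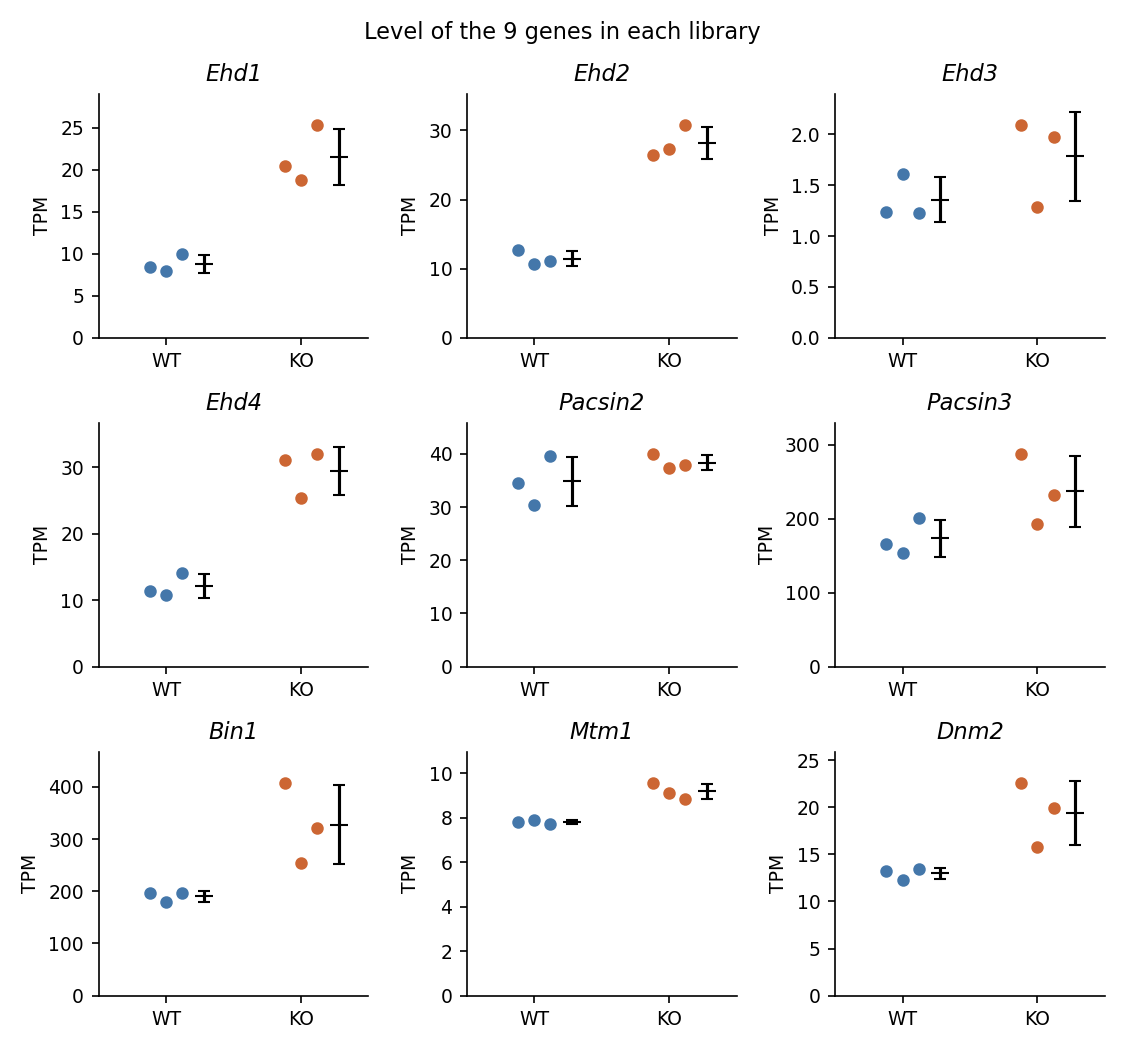
Level of each of the 9 genes in TPM (vertical axis, starting at 0) in the 3 WT (blue) and 3 KO (orange) libraries, with the mean and SD in black. The KO points of Ehd1, Ehd2, Ehd4, Bin1, Mtm1 and Dnm2 all lie above the WT points, and those of Ehd3, Pacsin2 and Pacsin3 overlap them.

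Ehd2 (ENSMUSG00000074364, chromosome 7, 15946958 to 15967567, minus strand, GRCm38) encodes the ATPase of the caveolar neck. It stood at 12.6, 10.6 and 11.1 TPM in the WT libraries and at 26.4, 27.2 and 30.7 TPM in the KO libraries. The groups were far apart, and the library-to-library spread was small in both, with an SD of 9.10% of the mean in WT and 8.17% in KO. The mean rose 2.46-fold, from 11.5 ± 1.04 to 28.1 ± 2.30 TPM (SD, n = 3 each), or by 1.23 on the log2 scale (SE 0.14, limma adjusted p = 7.79e-05). It lay at the 95.4th percentile of all genes tested, and it differed from the changes of Ehd4 and Ehd1 by less than their standard errors. After trimmed-mean rescaling the log2 fold change was 0.85 (SE 0.13, limma adjusted p = 0.00269).

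Ehd4 (ENSMUSG00000027293, chromosome 2, 120089175 to 120154606, minus strand) encodes an EHD protein of endosomes and the plasma membrane. Its WT values were 11.4, 10.8 and 14.1 TPM and its KO values 31.1, 25.3 and 31.9 TPM. The lowest KO library was well above the highest WT library. The log2 fold change was 1.22 (SE 0.16, limma adjusted p = 0.000161) on the deposited scale and 0.84 (adjusted p = 0.000762) after rescaling.

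Ehd1 (ENSMUSG00000024772, chromosome 19, 6276725 to 6300096, plus strand), the EHD protein of the endocytic recycling compartment, showed the same size of change. It stood at 8.36, 7.92 and 10.02 TPM in WT and at 20.5, 18.8 and 25.3 TPM in KO. KO library 3 was the highest and KO library 2 the lowest of its group, and again no values overlapped. The log2 fold change was 1.20 (SE 0.16, limma adjusted p = 0.000184), and 0.84 (adjusted p = 0.00219) after rescaling.

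Ehd3 (ENSMUSG00000024065, chromosome 17, 73804134 to 73832094, plus strand), an endosomal EHD protein best known from heart and brain, was the lowest of the family. It stood at 1.24, 1.61 and 1.22 TPM in WT and at 2.09, 1.29 and 1.98 TPM in KO. KO library 2 fell among the WT values. The log2 fold change of 0.23 had an interval from -0.10 to 0.57 (95%, limma) and did not pass (adjusted p = 0.23), and it was -0.02 after rescaling. At this low level the log2(TPM + 1) scale compresses a change, so that value cannot be set directly against those of the other EHD genes. With a pseudocount of 0.1 in place of 1 it was 0.35, beside 1.28, 1.29 and 1.28 for Ehd1, Ehd2 and Ehd4. The ratio of the mean TPM, KO over WT, was 1.31, beside 2.43 to 2.46 for those 3 genes.

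Summed over the family, the EHD level was 33.6, 31.0 and 36.4 TPM in WT and 80.1, 72.6 and 89.9 TPM in KO. That is a 2.40-fold difference of the means on the deposited scale. It depends on the library scale, since rescaling lowered the log2 fold changes of Ehd1, Ehd2 and Ehd4 to 0.84, 0.85 and 0.84. The make-up of that sum could be compared without regard to the scale of a library. Ehd1 made up 26.0 ± 1.36% of it in WT and 26.5 ± 1.39% in KO, Ehd2 34.1 ± 3.58% and 34.9 ± 2.35%, and Ehd4 35.8 ± 2.56% and 36.4 ± 2.13% (SD, n = 3 each). The shares of these 3 genes overlapped between the groups, and which group was higher turned when single libraries were left out. The Ehd3 share was 4.08 ± 0.985% in WT and 2.19 ± 0.419% in KO, with no overlap. An exact two-sided permutation test gave p = 0.1 for Ehd3, the smallest that 3 against 3 allows, and an adjusted p of 0.4 over the 4 shares. Ehd1, Ehd2 and Ehd4 were themselves called higher, so the Ehd3 share restates those changes and is no further evidence.

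**Figure D2:**
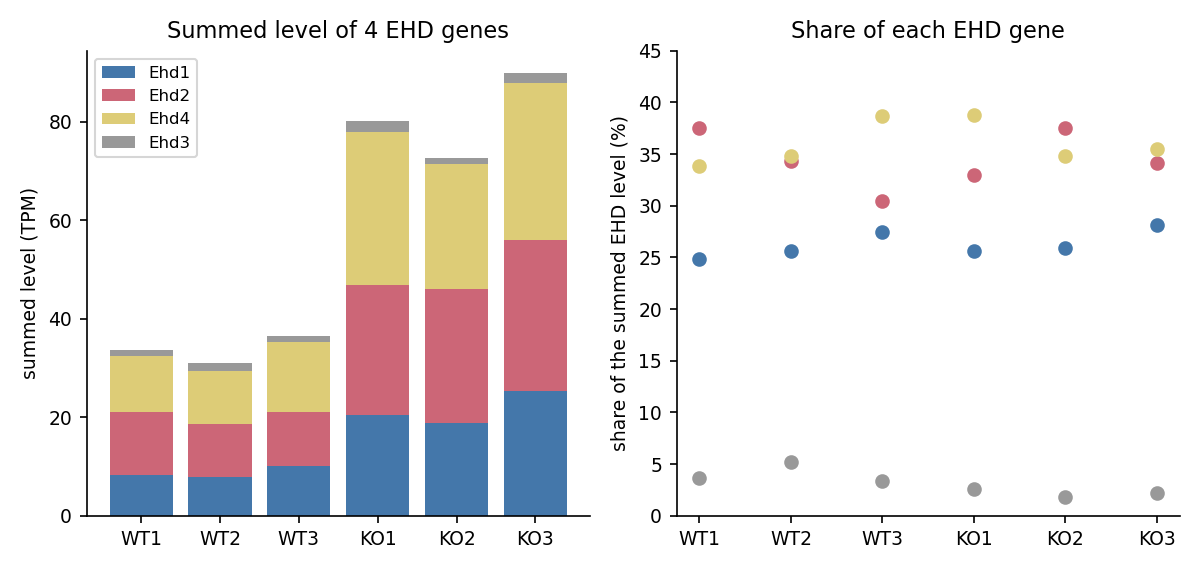
Left, the summed TPM of the 4 EHD genes in each library (horizontal axis), stacked by gene. Right, each gene's share of that sum in percent: the sums separate the 3 KO from the 3 WT libraries, while the shares of Ehd1, Ehd2 and Ehd4 overlap between the groups and the Ehd3 share is between 1.77 and 2.61% in KO and between 3.36 and 5.20% in WT.

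The caveolins gave a further reference within each library, since EHD2 acts at the neck of the structures that they build. Cav1, the caveolin of most non-muscle cells, rose with a log2 fold change of 1.26 (limma adjusted p = 9.95e-05), and Cav3, the caveolin of muscle fibres, with 1.22 (adjusted p = 0.000245). The level of Ehd2 was 0.143 ± 0.0207 times that of Cav1 in WT and 0.144 ± 0.0156 times in KO, and 0.357 ± 0.0450 and 0.371 ± 0.0503 times that of Cav3 (SD, n = 3 each). Both ratios overlapped between the groups (exact permutation p = 0.9 and p = 0.7, adjusted p = 1.0 for each over the 13 ratios computed). The ratio of Ehd2 to the endothelial marker Pecam1 overlapped too, at 0.408 ± 0.0306 in WT and 0.356 ± 0.0569 in KO. The changes of Ehd2, Cav1 and Cav3 were similar in size, so these ratios restate them and are no further evidence.

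The pacsin genes did not pass the test. Pacsin3 (ENSMUSG00000027257, chromosome 2, 91255954 to 91264679, plus strand) was the second most abundant of the 9 genes, at 166, 153.5 and 202 TPM in WT and 287, 192 and 232 TPM in KO. KO library 2 lay below WT library 3. The log2 fold change was 0.44 (95% interval 0.04 to 0.83, limma adjusted p = 0.071), and 0.04 (adjusted p = 0.80) after rescaling. It passed without WT library 3 (log2 fold change 0.55, adjusted p = 0.042) and without KO library 2 (0.58, adjusted p = 0.025).

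Pacsin2 (ENSMUSG00000016664, chromosome 15, 83375607 to 83464606, minus strand), the broadly expressed pacsin that shapes caveolae of other cell types, stood at 34.5, 30.4 and 39.6 TPM in WT and 39.9, 37.4 and 37.8 TPM in KO. The KO values were close together and inside or just above the WT range. The log2 fold change was 0.14 (95% interval -0.18 to 0.46, limma adjusted p = 0.43), below the median of all genes. After rescaling its sign turned, with a log2 fold change of -0.24 (95% interval -0.45 to -0.03, limma adjusted p = 0.085). The rescaled values were 37.2 to 41.0 TPM in WT and 31.5 to 35.6 TPM in KO. That interval lay below 0, but the change did not pass after adjustment.

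The pacsins were also set beside Ehd2 and the caveolins, which are partners at the caveola. Ehd2, Cav1 and Cav3 were themselves called higher, so these ratios describe the same values and are no further evidence. The ratio of Ehd2 to Pacsin2 was 0.366, 0.351 and 0.280 in WT and 0.662, 0.729 and 0.813 in KO. The ratio of Pacsin2 to Cav1 was 0.429 ± 0.0208 in WT and 0.198 ± 0.0289 in KO, and that of Pacsin3 to Cav3 was 5.36 ± 0.241 and 3.11 ± 0.579 (SD, n = 3 each). None of these 3 ratios overlapped between the groups, and each gave an exact permutation p = 0.1, the smallest possible (adjusted p = 0.217 over 13 ratios). Pacsin3 made up 83.3 ± 0.457% of the summed Pacsin2 and Pacsin3 level in WT and 85.8 ± 2.04% in KO, a difference of 2.55 percentage points (exact permutation p = 0.1).

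**Figure D3:**
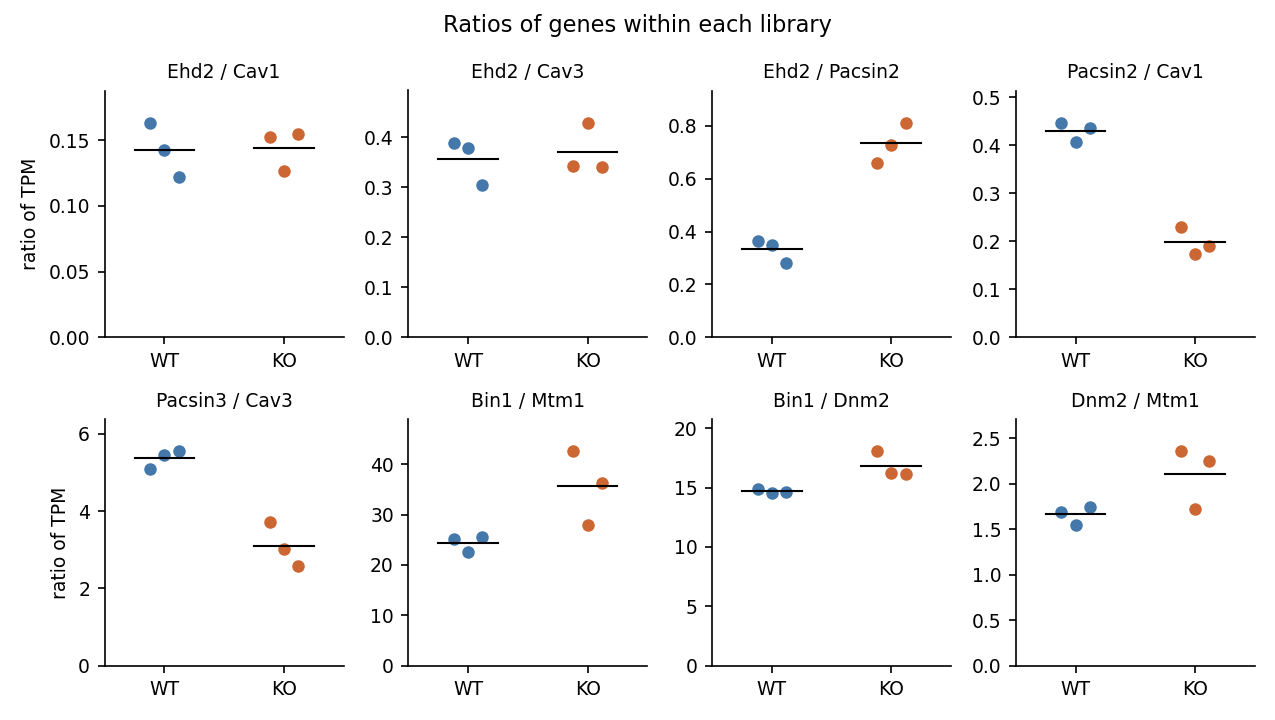
Ratio of the TPM of 2 genes within each library (vertical axes, starting at 0) for 8 pairs, with WT in blue, KO in orange and the group mean as a line. Ehd2 against Cav1 or Cav3 overlaps between the groups, Ehd2 against Pacsin2 is higher in KO, and Pacsin2 against Cav1 and Pacsin3 against Cav3 are lower in KO.

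Of the 3 genes of the transverse tubule and centronuclear myopathy, Bin1 and Dnm2 were called higher and Mtm1 was not. Bin1 (ENSMUSG00000024381, chromosome 18) was the most abundant of the 9 genes, at 197, 179 and 197 TPM in WT and 407, 255 and 322 TPM in KO. The WT libraries lay close together (SD 5.44% of the mean), while the KO libraries ranged widely (SD 23.2%), with KO library 1 the highest and KO library 2 the lowest. The means were 191 ± 10.4 and 328 ± 76.1 TPM (SD, n = 3 each), and the log2 fold change was 0.76 (SE 0.18, limma adjusted p = 0.00699). After trimmed-mean rescaling it was 0.36 (adjusted p = 0.061) and did not pass, although the groups still did not overlap. Without both WT library 2 and KO library 1 it was 0.54 (adjusted p = 0.098).

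Dnm2 (ENSMUSG00000033335, chromosome 9, 21424908 to 21507759, plus strand) stood at 13.3, 12.3 and 13.4 TPM in WT and 22.5, 15.7 and 19.9 TPM in KO. The KO libraries kept the order seen for Bin1, with library 1 highest and library 2 lowest. The factors by which trimmed-mean rescaling divided KO libraries 1, 2 and 3 were 1.27, 1.05 and 1.13, the same order. After rescaling the KO values of Dnm2 were 17.8, 15.0 and 17.6 TPM. On the deposited scale the log2 fold change was 0.53 (SE 0.16, limma adjusted p = 0.021), and this call was not stable. It was lost after trimmed-mean rescaling (0.16, adjusted p = 0.29), after quantile normalization (0.20, adjusted p = 0.19) and on a scale of nuclear genes alone (0.35, adjusted p = 0.054). It was also lost without WT library 1 (adjusted p = 0.054), WT library 2 (0.076), KO library 1 (0.070) or KO library 3 (0.069), as adjusted p, and without WT library 2 and KO library 1 together (adjusted p = 0.18). Over all alternatives the adjusted p ran from 0.00564 to 0.29.

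Mtm1 (ENSMUSG00000031337, chromosome X, 71210767 to 71315691, plus strand) varied least among the WT libraries (SD 1.34% of the mean). It stood at 7.82, 7.91 and 7.70 TPM in WT and 9.55, 9.14 and 8.87 TPM in KO. The groups did not overlap, as for 48.7% of all genes tested with KO above WT, but the log2 fold change of 0.21 (95% interval -0.08 to 0.50) did not pass limma (adjusted p = 0.21). After rescaling it was -0.14 (adjusted p = 0.37) and the groups overlapped.

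Bin1 and Dnm2 followed each other across the libraries. The level of Bin1 was 14.8, 14.6 and 14.7 times that of Dnm2 in WT and 18.1, 16.2 and 16.2 times in KO. Their log2 levels had a Pearson r of 0.996 over the 6 libraries. It is given as a description, because the genotype difference and the library scale act on both genes. The ratio of Bin1 to Mtm1 was 24.4 ± 1.60 in WT and 35.6 ± 7.37 in KO, and that of Bin1 to Cacna1s, the voltage sensor of the transverse tubule, was 1.52 ± 0.282 and 2.26 ± 0.484 (SD, n = 3 each). All 3 ratios were higher in KO with no overlap (exact permutation p = 0.1 for each, adjusted p = 0.217 over 13 ratios). Bin1 was itself called higher, and its log2 fold change was above those of Dnm2, Mtm1 and Cacna1s (0.19). These ratios therefore restate the same values and are no further evidence. The ratio of Dnm2 to Mtm1 overlapped, at 1.66 ± 0.0993 and 2.11 ± 0.341. Some exons of Dnm2 overlap Tmed1 on the other strand, and those of Pacsin3 and Bin1 overlap Gm17281 and A830052D11Rik, so reads could be divided differently if strand was not used. Tmed1 stood at 14.3, 15.0 and 18.1 TPM in WT and 15.4, 14.0 and 13.8 TPM in KO.

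**Figure D4:**
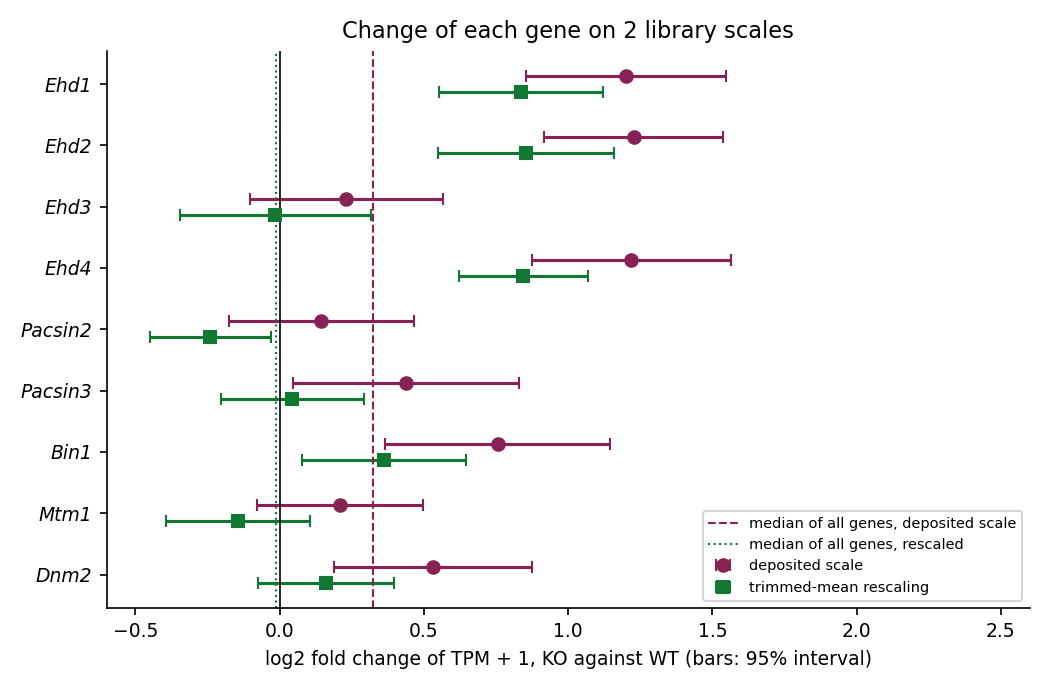
Log2 fold change of TPM + 1, KO against WT, with 95% intervals from limma, for the 9 genes on the deposited scale (circles) and after trimmed-mean rescaling (squares). Vertical lines mark the medians of all genes, 0.33 and -0.01. Ehd1, Ehd2, Ehd4, Bin1, Dnm2 and Pacsin3 lie to the right of the line of each scale, and Ehd3, Pacsin2 and Mtm1 change sign between the scales.

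The order of the levels differed between the genotypes in the middle of the range. In WT it ran from Bin1 and Pacsin3, whose values overlapped, through Pacsin2 to Dnm2, Ehd4 and Ehd2, of which neighbours overlapped, and then to Ehd1, Mtm1 and Ehd3. In KO Bin1, Pacsin3 and Pacsin2 again came first, but Ehd4 and Ehd2, at 29.4 and 28.1 TPM, now stood above Ehd1 at 21.5 and Dnm2 at 19.4 TPM. Dnm2 thus went from the 4th to the 7th place. Ehd4 and Ehd2 overlapped each other, as did Ehd1 and Dnm2, and Mtm1 and Ehd3 remained last.

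Markers of endothelium, fibroblasts and macrophages were higher in KO, as were Ehd1, Ehd2 and Ehd4 but not Ehd3. The marker calls are on the deposited scale, where 36.3% of all genes tested were called higher. The summed level of 8 endothelial markers was 142 to 163 TPM in WT and 260 to 312 TPM in KO, a 1.88-fold difference, with 7 called higher and Kdr lower. The sum of 8 fibroblast and fibro-adipogenic progenitor markers was 289 to 320 TPM in WT and 875 to 917 TPM in KO, and the sum of 8 macrophage markers 15.6 to 19.4 and 97.2 to 133 TPM, with all 8 called higher in both lists. The macrophage marker Adgre1 stood at 0.302, 0.288 and 0.265 TPM in WT and reached the filter only through KO. The sum of 7 adipocyte markers, most of it Fabp4, was 405 to 526 and 537 to 598 TPM with none of the 6 tested called. That of 7 smooth muscle and pericyte markers was 166 to 175 and 193 to 208 TPM with 1 of 6 tested called higher. That of 5 Schwann cell markers was 19.9 to 20.9 and 15.5 to 19.0 TPM with none of 3 tested called. That of 5 satellite cell markers, most of it Cdh15 and Chodl, was 10.1 to 12.2 and 13.4 to 18.3 TPM with 2 of 3 tested called higher. Calcr, too low to be tested, went the other way, at 0.302, 0.319 and 0.330 TPM in WT and 0.164, 0.126 and 0.0647 TPM in KO. Pax7 was also too low to be tested, and Myf5 overlapped between the groups. Of the 8 muscle fibre markers, 1 was called higher and none lower. No marker in these lists was at 0 in every library.

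Per 100 TPM of the endothelial markers, Ehd2 stood at 6.82 to 8.58 TPM in WT and 8.47 to 11.8 TPM in KO, which overlapped, whereas Ehd1 and Ehd4 did not overlap and were 1.33 and 1.31 times higher in KO. Per 100 TPM of the fibroblast markers, Ehd1 and Ehd2 overlapped and Ehd4 was lower in KO (3.654 to 4.41 TPM in WT and 2.76 to 3.650 TPM in KO). Every other member was lower in KO by that measure too, with no overlap. Per 100 TPM of the macrophage markers, Ehd1, Ehd2 and Ehd4 were all lower in KO with no overlap, at 0.36 times their WT values, and so was every other member. The macrophage and fibroblast sums themselves rose 6.84-fold and 2.98-fold, so these ratios restate that rise and are no further evidence. Per 100 TPM of the muscle fibre markers, Ehd1, Ehd2 and Ehd4 were 2.18, 2.17 and 2.17 times higher in KO, with no overlap. The ratios to the endothelial and muscle fibre markers likewise restate the changes of the members and of the marker sums. The part of these cell types in the changes was not tested, and in bulk tissue a change in the number of cells and a change in RNA per cell cannot be told apart.

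Related genes were counted in 7 lists, to be read beside the 36.3% of all genes called higher, or 14.2% after rescaling. Genes other than Cavin1 named as lower after rescaling were chosen after their values were seen. Among 7 genes of the caveola coat, 5 were called higher and Cavin1 lower (median log2 change 0.67), and after rescaling 3 were higher and Cavin1 lower. Cavin1 was not tested when a WT library was left out, since it then reached 1 TPM in too few libraries. Cavin3, a coat subunit, rose with a log2 fold change of 1.70 (limma adjusted p = 1.06e-05). Of 7 tested close relatives of the 9 genes, 2 were higher and none lower (0 at an unadjusted p under 0.05), the neuronal dynamin Dnm1 by 0.73 and Mtmr12, the adaptor that stabilises myotubularin, by 0.53, and after rescaling none was higher (2 at an unadjusted p under 0.05, limma) and 1 lower, the mitochondrial fission dynamin Dnm1l (log2 change -0.64, adjusted p = 0.0075). Pacsin1, Amph and Bin2 did not reach the filter.

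Of 12 EHD partners and recycling proteins 5 were higher and none lower (0 at an unadjusted p under 0.05, limma), with a median of 0.39. This was 41.7% of the list, near the 36.3% of all genes. After rescaling 2 were higher, 16.7% beside 14.2% of all genes, with a median of 0.05. The 1 then lower was the GTPase Rab10 (-0.31, limma adjusted p = 0.043). Micall1, which recruits EHD1 to recycling tubules, stood at 9.43, 7.87 and 9.85 TPM in WT and 29.0, 13.9 and 26.8 TPM in KO (log2 fold change 1.21, limma adjusted p = 0.0023). The GTPase Rab8a, which works with Micall1, rose by 0.82, and both kept their call after rescaling. Rab11a, the GTPase of recycling endosomes, rose by 0.54 and lost its call after rescaling (limma adjusted p = 0.26) and without WT library 2 (adjusted p = 0.066). The count of 5 became 2 without WT library 2, 3 without KO library 1 and 3 without KO library 3.

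Among 25 tested proteins with other BAR domains, 15 were higher and none lower by adjusted p (1 at an unadjusted p under 0.05, limma), with a median of 0.51, and after rescaling 7 were higher and 1 lower, Pick1 (-0.74, limma adjusted p = 0.0051). Those with the smallest adjusted p were Baiap2 (0.96), Arhgap17 (0.83) and Acap2 (0.73, log2 fold changes). Among the 15, Baiap2, Gas7 and Snx33 were below 1 TPM in most WT libraries and reached the filter only through KO. Their WT values were 0.727, 0.626 and 1.20 TPM, 0.738, 0.913 and 1.22 TPM, and 0.608, 0.736 and 0.763 TPM. Their calls are therefore no support for a rise of this list. In the clathrin list 10 of 18 were higher and none lower (0 at an unadjusted p under 0.05, limma), and after rescaling 4 were higher and 1 lower, the clathrin assembly protein Picalm (-0.55, limma adjusted p = 0.021). Those with the smallest adjusted p were the adaptor Epn2 (1.08), the actin-binding protein Cttn (0.97) and the light chain Cltb (0.87). Of 17 phosphoinositide enzymes 6 were higher and none lower (0 at an unadjusted p under 0.05, limma), and after rescaling none was higher (1 at an unadjusted p under 0.05, limma) and 1 lower, Synj2 (-0.45, adjusted p = 0.039). The 6 were 35.3% of the list, near the 36.3% of all genes. The smallest adjusted p belonged to Pip5k1c (0.66), Inpp5k (0.56) and Mtmr14 (0.52). The call for Inpp5k was lost without WT library 1 (limma adjusted p = 0.056), and that for Mtmr14 without WT library 1 (adjusted p = 0.074) or KO library 3 (adjusted p = 0.0504). The clathrin count of 10 became 5 without WT library 1, WT library 2 or KO library 1 and 6 without KO library 3. The phosphoinositide count of 6 became 2 without WT library 1 and 3 without WT library 2 or KO library 3.

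Of 15 transverse tubule and triad proteins, 2 were higher and none lower by adjusted p (1 at an unadjusted p under 0.05, limma). This was 13.3%, beside 36.3% of all genes, their median change being 0.22 (log2), and after rescaling 2 were higher and 3 lower, with a median of -0.17. The 3 were Hrc, Jph1 and Speg. The count was 2 or 3 with any single library left out. The 2 were Cacnb1, the beta subunit of the calcium channel, from 28.3 ± 0.671 to 62.3 ± 11.2 TPM (log2 fold change 1.10, limma adjusted p = 0.000329), and Popdc3, a membrane protein of striated muscle, from 26.2 ± 4.11 to 54.0 ± 15.1 TPM (0.99, adjusted p = 0.0030). As for Bin1 and Dnm2, KO library 1 was the highest and KO library 2 the lowest of its group for both. The factors of trimmed-mean rescaling had that order too, and the part of the library scale in it was not tested.

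**Figure D5:**
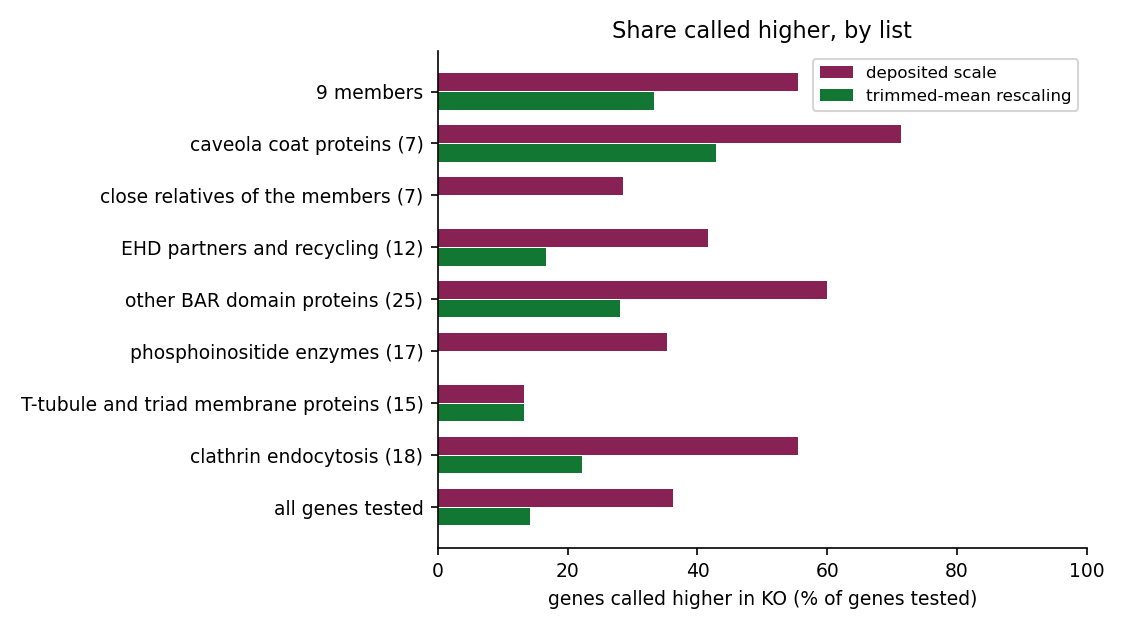
Percent of tested genes called higher in KO (horizontal axis, limma adjusted p under 0.05) in the 9 genes, the 7 related lists (number tested in parentheses) and all genes, on the deposited scale and after trimmed-mean rescaling. The share for all genes is 36.3% and 14.2%, and that of the transverse tubule and triad list is 13.3% on both scales.

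Ehd2, whose estimate was the largest of the 9 by a margin below its error, was taken for a search for similar genes. The genes most like it by Pearson r of log2(TPM + 1) over the 6 libraries were Fam129b (r = 0.9995), Tmem106a, Serpinb1a, Vkorc1 and Polr2a (r = 0.997). Of the other 11055 tested genes, 1097 had an r above 0.95, and all these genes share the libraries and the difference between the genotypes. Tmem106a stood below 1 TPM in every WT library. Ehd1 and Ehd4 each had an r of 0.97 with Ehd2, and an r of 0.99 with each other, again as a description over 6 libraries.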

How the data were processed

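Poly(A) RNA libraries were made from TRIzol-extracted RNA with a NEBNext Ultra kit, per the labels' protocols. The submitters' processing notes list STAR 2.5.3a, kallisto 0.43.0, GRCm38 and mm10 but do not say what each was used for. The deposited values carry no unit, and they were taken as TPM because they are fractional and have nearly equal totals. Those totals, 843194 to 872482, are below the fixed total of a complete set of TPM values. Were they RPKM or FPKM instead, comparisons between libraries would shift by a factor per library. TPM is a share, so abundant transcripts, such as the mitochondrial ones at 39.0 to 52.3% of a library's summed values, move all others.

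Samples were grouped by the labels, the 6 repeated files were dropped, and genes missing from a file were set to 0. The members and lists were chosen with earlier results of these data known. A gene entered the test if 3 or more libraries had 1 TPM or more, and limma 3.58.1 was run on log2(TPM + 1) (R 4.3.3, intensity trend, 4 residual degrees of freedom, Benjamini-Hochberg adjustment over all genes, threshold 0.05). The fold changes are on that scale, which understates changes of low genes. The test was first tested on simulated data. Shares and ratios within a library were tested with exact two-sided permutation tests (scipy 1.17.1). Trimmed-mean rescaling left out 30% of ratios and 5% of levels at each end. Positions are from GENCODE M21 (GRCm38). Other alternatives were quantile normalization, a nuclear-only scale, no trend, other filters and pseudocounts, a replicate block, a fold change minimum and libraries left out. Named genes were the 9 members, Cavin1, up to 3 passing genes of smallest adjusted p per list, and the 5 genes most correlated with the member of largest change. Cav3, the ratio partners, the myosin heavy chains, Kdr, Fabp4 and the overlapping genes were added for context.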

Additional observations from a re-analysis of the deposited data

How the results depend on the processing

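Ehd1, Ehd2 and Ehd4 stayed higher and past the threshold under all 17 alternatives run for each, with log2 fold changes of 0.84 to 1.29, 0.85 to 1.29 and 0.84 to 1.33. The direction of 3 other genes turned without passing in either direction. Ehd3 had a log2 fold change of -0.19 after quantile normalization and -0.015 after trimmed-mean rescaling, Mtm1 -0.18 and -0.14, and Pacsin2 -0.14 and -0.24, with -0.053 for Pacsin2 on the nuclear-only scale. The cause was not tested. Members called higher numbered 3 after trimmed-mean rescaling, 3 without WT library 2 and KO library 1 together, 3 where a log2 fold change of 1 or more in size was also asked for, and 4 to 6 with single libraries left out. They numbered 4 after quantile normalization and on the nuclear-only scale, where 12.4% and 23.4% of all genes were higher.

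Genes called higher and lower numbered 1373 and 1450 after quantile normalization, 1561 and 1479 after trimmed-mean rescaling, 2847 and 776 on the nuclear-only scale, 1673 and 213 without WT library 2 and KO library 1, and 861 and 51 with the fold change minimum. With the filter of 10 TPM, under which fewer genes were tested, 1616 were higher. With single libraries left out the higher count ran from 2379 (without KO library 1) to 4150, and was 2535 without WT library 2 and 2504 without KO library 3. The lower count ran from 219 to 346.

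The difference in EHD shares (KO minus WT, percentage points) ran from -0.25 to 1.30 for Ehd1, from -1.08 to 2.49 for Ehd2, from -2.25 to -1.33 for Ehd3 and from -0.64 to 2.03 for Ehd4 with single libraries left out, and it was -1.12 for Ehd4 without WT library 2 and KO library 1. The Pacsin3 difference ran from 1.56 to 3.60. With the replicate number as a block, 4047 genes were higher and 326 lower, and 5 members were higher and 0 lower. Same-numbered WT and KO libraries had correlations of their deviations of 0.03, -0.01 and 0.04, and no WT library correlated best with its own number, so the numbers were not taken to pair the samples. Depth is unknown and limits the low genes, such as Ehd3, in a way that could not be measured.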
